A study of Mus musculus with 2 samples.

Results

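Genes of the hypoxia response and of glycolysis were followed in single cells of mouse small cell lung cancer, a neuroendocrine lung tumour. They are Vegfa, Slc2a1, Pgk1, Ldha, Pdk1, Bnip3, Egln3, P4ha1, Aldoa and Hk2, 10 of the 28692 genes in the deposited matrices, and each was found by its symbol in both libraries. The tumours came from mice of mixed strain with the Cre allele CGRPCreER/+, conditional alleles that include Rbf/f and P53f/f, and the reporter Rosa26mTmG, and the mice of both groups carried all of these. Cre is under control of CGRP, the product of Calca that marks pulmonary neuroendocrine cells, so loss of Rb and P53 and the switch to GFP start from cells that express it. Animals received saline (vehicle) or cisplatin, 5 mg per kg, once in 4 days over 2 weeks. The labels of library preparation also name etoposide for the treated tumours, while the treatment is labelled cisplatin alone. The lung tumours were dissociated, and live GFP-positive cells were sorted. One library was made per group, with 5000 cells loaded for each, and neither the number nor the age of the animals is given in the sources used here. Library and treatment are therefore the same variable and cannot be told apart, no difference between the libraries has a replicate check, and no p-value is given.

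After filtering, 3650 vehicle cells with 32049978 UMIs (molecule counts) and 4214 cisplatin cells with 28635899 UMIs were used, at medians of 8205.5 and 5940.5 UMIs per cell. Of these, 99.8% in each library carried at least 3 of the neuroendocrine markers fixed for the check of the labelled cell type. The share of mitochondrial UMIs was 2.91% in vehicle and 3.35% in cisplatin, and 23 barcodes occurred in both libraries. Summed marker levels of several other cell types differed between the libraries: club cell genes stood at 204 CPM (UMIs scaled to a total of 1000000) in vehicle and 2064 in cisplatin, alveolar type 2 genes at 27.0 and 190, fibroblast genes at 43.5 and 20.99, neutrophil genes at 33.7 and 2.97, and erythroid genes at 53.9 and 0.733. Nearly all of the fibroblast sum was Dcn, at 43.0 CPM in vehicle and 19.7 in cisplatin. Col1a1, Col1a2, Col3a1, Lum and Pdgfrb were higher in cisplatin, each from at most 20 UMIs. Among the club cell genes, Scgb3a1 went against the sum, at 3.40 CPM in vehicle and 0.419 in cisplatin. The part of these markers in the results below was not tested.

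Cells answer low oxygen through the hypoxia-inducible factors (HIF), whose alpha subunits Hif1a and Epas1 are marked for destruction by prolyl hydroxylases (the Egln enzymes) and the Vhl ubiquitin ligase while oxygen is present. When oxygen falls, the alpha subunits persist, pair with Arnt and bind short DNA elements with the core ACGTG or GCGTG. Their targets raise glucose uptake and glycolysis, turn pyruvate away from mitochondria and toward lactate, remove mitochondria, modify collagen and call in blood vessels. Several of the same genes also serve housekeeping glycolysis, so their levels do not report HIF alone.

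The letters of these elements could be read in front of the genes. RefSeq's table of transcription starts (GRCm38.p6) held 15 windows of the 250 bases before a start for the 10 genes. Either core, searched on both strands, occurred in 12 of the 15 windows and at least 1 window of each of the 10 genes, and in 38.6% of all 32851 windows of the table. ACGTG alone was in 10 of the 15 and in 16.6% of all windows, and GCGTG in 6 of the 15 and in 28.2% (ACGTG overlaps its own reverse complement in CACGTG). The 2 windows of Aldoa with a match overlap and hold the same ACGTG, so it is counted in both. A match is a description of the letters and not a bound site. The stretches below are shown for the 2 genes that were lower in the cisplatin library, the gene that was highest with Hhex, and Ldha, whose stretch holds matches side by side. They are written 5′ to 3′ on the gene's strand with the cores of either strand in capitals, and they lie upstream of the start named in the table and outside exons of the GENCODE M21 annotation; the Ldha stretch falls within the annotated span of Ldha itself. In that annotation (GRCm38) Egln3 lies on chromosome 12 from 54178981 to 54203860, Pdk1 on chromosome 2 from 71873224 to 71903858, and P4ha1 on chromosome 10 from 59323296 to 59373304, and no other gene overlaps these.
Egln3, chr12:54204074-54204124, minus strand: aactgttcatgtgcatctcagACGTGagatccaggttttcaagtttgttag
Pdk1, chr2:71873121-71873175, plus strand: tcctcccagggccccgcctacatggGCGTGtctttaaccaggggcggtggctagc
P4ha1, chr10:59323255-59323295, plus strand: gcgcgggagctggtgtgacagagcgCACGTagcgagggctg
Ldha, chr7:46845745-46845799, plus strand: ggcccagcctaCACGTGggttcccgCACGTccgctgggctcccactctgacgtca

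The first question was how the genes differed between vehicle and cisplatin tumours. Egln3 and Pdk1 were lower in the cisplatin library, and no member was higher by the 1.5-fold limit used for a call. Bnip3 stood just under that limit on the higher side. Ldha, of lactate production, was slightly lower, and Slc2a1, of glucose uptake, was lower by little more than the median of all genes. A level is the UMI sum of a gene over a group of cells in CPM of that group's total, with an exact Poisson 95% interval, and folds carry exact conditional binomial 95% intervals. Both cover counting error alone, and since the counts come from transcript ends, levels of different genes are not compared.

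**Figure D1:**
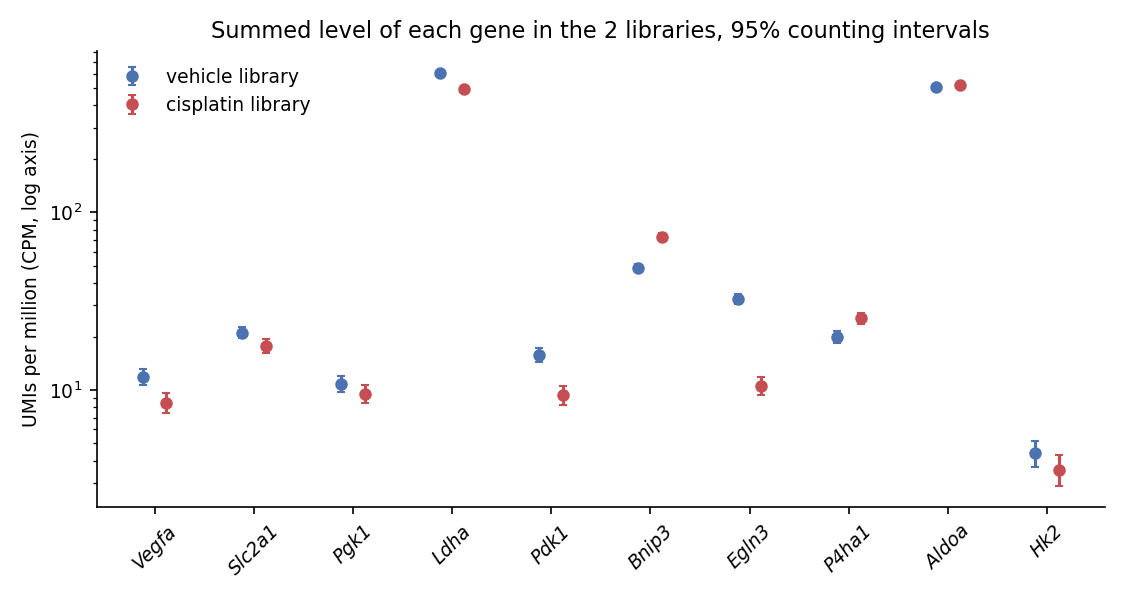
Summed level of each of the 10 genes in CPM (log axis) in the vehicle (blue) and cisplatin (red) libraries; points are sums over 3650 and 4214 cells and bars are exact 95% Poisson intervals, which cover counting error only. The widest gap is that of Egln3, at 32.5 CPM for vehicle and 10.5 CPM for cisplatin.

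Egln3 encodes the prolyl hydroxylase PHD3, an oxygen sensor that is itself a HIF target. The vehicle library had 1043 UMIs, a level of 32.5 CPM (30.6 to 34.6), and the cisplatin library 301 UMIs, a level of 10.5 CPM (9.36 to 11.8). The level was 3.10-fold lower in cisplatin (2.72 to 3.53). Pdk1, the kinase that switches off pyruvate dehydrogenase, had a vehicle level of 15.7 CPM (14.4 to 17.1) and a cisplatin level of 9.36 CPM (8.27 to 10.5), which is 1.68-fold lower (1.44 to 1.95). For both genes the counting intervals of the libraries did not overlap, and the share of all genes for which this holds is not given here.

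Among the 13388 genes with at least 50 UMIs over both libraries, 21.5% were lower and 8.23% higher in cisplatin by the same limit, so the 2 of 10 members called lower lie near the background for all genes. The median log2 ratio, with 1 CPM added to each level, was -0.25 over the members and -0.16 over all genes. Of the members, 3 lay above 0 and 7 below, beside 4889 and 8499 of the 13388 genes. The split over all genes moved with the scaling: it was 11.8% higher and 14.1% lower under trimmed means (TMM) and 12.6% and 13.2% under median-of-ratios size factors. Egln3 was called lower under each of those scalings. Pdk1 was called under TMM and missed the limit under median-of-ratios scaling and when ratios were taken relative to the median of all genes.

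Of the genes of glucose uptake and glycolysis, none passed the limit. Slc2a1, the glucose transporter GLUT1, had 21.1 CPM in vehicle and 17.7 in cisplatin, 1.19-fold lower (1.06 to 1.34). Its log2 ratio was -0.24, beside a median of -0.16 over all genes. With each cell thinned to 3000 UMIs, 5.79% of vehicle and 5.74% of cisplatin cells had a Slc2a1 UMI. Hk2, the hexokinase that traps glucose, had 4.40 and 3.53 CPM from 141 and 101 UMIs, and the interval of its ratio includes 1. The same holds for Pgk1, phosphoglycerate kinase, at 10.8 and 9.53 CPM. The most heavily counted members differed by little. Ldha, which turns pyruvate to lactate, had a vehicle level of 612 CPM (604 to 621) and a cisplatin level of 494 (486 to 502), which is 1.24-fold lower. Aldoa, the aldolase of muscle and many tumours, was at 506 and 520 CPM, and its reads cannot be told from those of the overlapping gene Fam57b on the other strand if counting ignored strand, which the sources used here do not state. Slc2a1, Bnip3 and Hk2 likewise overlap predicted genes on the other strand.

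The remaining members have roles outside glycolysis. Bnip3, which sits on mitochondria and promotes their removal, had a vehicle level of 48.7 CPM (46.3 to 51.2) and a cisplatin level of 72.9 (69.8 to 76.1). This was the largest difference on the higher side, a log2 ratio of 0.57, and it passed the limit of 1.5-fold under TMM and median-of-ratios scaling. P4ha1, a subunit of the collagen prolyl hydroxylase, stood at 19.97 and 25.3 CPM. Vegfa, the secreted growth factor for blood vessels, was at 11.8 and 8.49 CPM, 1.39-fold lower (1.18 to 1.64). P4ha1 was thus higher and Vegfa lower in cisplatin by less than 1.5-fold, with intervals on 1 side of 1.

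**Figure D2:**
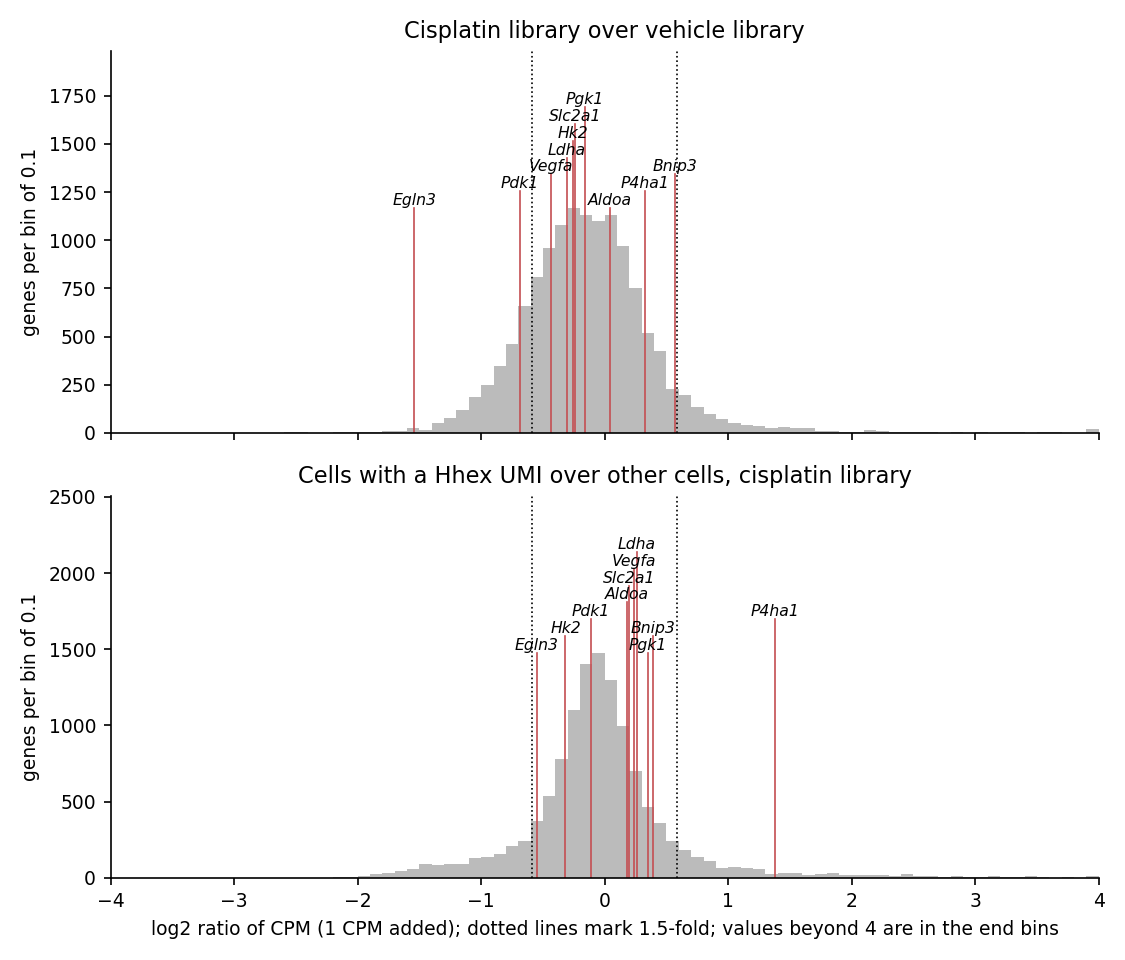
Histogram of log2 ratios of CPM, with 1 CPM added, over all genes with at least 50 UMIs (grey) and the 10 members (red lines), for cisplatin over vehicle (top) and for cells with a Hhex UMI over other cells in the cisplatin library (bottom). Egln3 lies far to the left at -1.54 in the top panel and P4ha1 to the right at 1.38 in the bottom panel; dotted lines mark 1.5-fold, and since calls use CPM without the added 1, Egln3 in the bottom panel is called although its line at -0.55 falls just inside.

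The lower Egln3 level was seen both as fewer cells with the transcript and as fewer molecules in the cells that had most. With each cell thinned to 3000 UMIs (144 vehicle and 361 cisplatin cells were shallower and left out), 293 of 3506 vehicle cells had an Egln3 UMI, 8.36% (7.46 to 9.32, exact binomial interval), against 129 of 3853 cisplatin cells, 3.35% (2.80 to 3.97). Without thinning the shares were 22.2% and 6.60%. The variance of the thinned counts was 1.41 times their mean in vehicle and 1.03 times in cisplatin, and the highest cell had 11 and 2 UMIs. Bnip3 had the opposite order, with a UMI in 12.5% of vehicle and 19.8% of cisplatin cells (30.2% and 35.7% without thinning), while its highest thinned cell had 8 UMIs in vehicle and 4 in cisplatin. Free RNA can add UMIs to any cell, and no cell type that lacks these transcripts was available to measure that share.

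Around the members, 58 further genes in 4 lists describe the rest of the pathway. Like the members, the lists were chosen with results of these data known. Of 7 measured oxygen sensors and HIF subunits, 1 was lower in cisplatin and none was higher, with a median log2 ratio of -0.28. The one that was lower, Epas1 (HIF2A), had 3.31 CPM in vehicle and 1.82 in cisplatin from 106 and 52 UMIs. Hif1a stood at 98.3 and 109 CPM, its partner Arnt at 25.4 and 20.8, and Vhl at 16.8 and 14.7. The other 2 sensors of the prolyl hydroxylase family were at 17.3 and 12.2 CPM (Egln1) and 69.2 and 55.7 CPM (Egln2). Both ratios lay on the same side as that of Egln3 and neither reached 1.5-fold.

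Of 24 measured further HIF targets, 1 was higher and 4 were lower in cisplatin, with a median log2 ratio of -0.15, beside -0.16 for all genes. Slc16a3, the lactate exporter MCT4, had the lowest ratio of the 4 lists, at 39.3 and 14.0 CPM (2.81-fold lower in cisplatin, 2.51 to 3.15). Ankrd37 was 2.32-fold lower, at 45.4 and 19.6 CPM, and the transferrin receptor Tfrc 1.98-fold lower, at 30.1 and 15.2 CPM. Pfkfb3, named after its values were seen, had 39 and 13 UMIs. The single higher target was Adm, the vessel-relaxing peptide adrenomedullin, at 5.30 and 13.9 CPM (2.62-fold, 2.18 to 3.15). The targets thus lay on both sides of 0, with 9 above and 15 below, beside 4889 and 8499 of all genes.

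Of 14 further glycolysis genes, 10 lay below 0, with a median of -0.31, and 1 passed the limit on each side. Among all 13388 genes, 8499 lay below 0 and 4889 above, with a median of -0.16. Pfkl, the liver form of phosphofructokinase, was 1.66-fold lower in cisplatin, at 58.1 and 35.1 CPM. Gapdh was at 1441 and 1020 CPM and Gpi1, glucose-phosphate isomerase, at 186 and 129 CPM, both under the limit. Ldhb, the lactate dehydrogenase subunit of aerobic tissues, was called higher at 2.09 and 3.84 CPM, but 52 of its 110 cisplatin UMIs came from 1 cell. Of 10 measured genes for entry of pyruvate into mitochondria, 7 lay above 0, with a median of 0.15. The mitochondrial pyruvate carrier Mpc1 stood at 183 CPM for vehicle and 232 for cisplatin, the pyruvate dehydrogenase subunit Pdhb at 86.8 and 115, and the phosphatase Pdp1, which opposes Pdk1, at 16.5 and 20.3. Citrate synthase (Cs) was the 1 gene of this list past the limit, 1.52-fold lower at 97.0 and 63.7 CPM.

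The second question was whether the genes differ in cells with Hhex, a homeobox factor of delta cells in pancreatic islets and of other endocrine lineages. A cell with at least 1 Hhex UMI counted as Hhex-positive. There were 51 such cells of 3650 in vehicle (1.40%, 1.04 to 1.83) and 910 of 4214 in cisplatin (21.6%, 20.4 to 22.9). This class is a range on a scarce count and not a cell type: 34 of the vehicle and 329 of the cisplatin cells had exactly 1 UMI. Hhex-positive cells were also deeper, with medians of 7925 UMIs against 5527.5 in cisplatin and 11355 against 8175 in vehicle. In the cisplatin library 53.0% of them were mitotic, by the count defined below, against 42.5% of other cells, and 45.2% against 33.6% were stress-high.

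In the cisplatin library P4ha1 was higher in Hhex-positive cells and Egln3 was lower. P4ha1 had 362 UMIs in the 910 Hhex-positive cells and as many in the 3304 other cells. Its level was 46.7 CPM (42.0 to 51.8) against 17.3 (15.6 to 19.2), a 2.69-fold difference (2.32 to 3.12). Hhex-positive cells thus held 50% of the P4ha1 UMIs and 27.1% of all UMIs of the library. The level was 35.2 CPM in cells with exactly 1 Hhex UMI and 52.2 in cells with 2 or more. After thinning, 12.1% of Hhex-positive and 5.26% of other cells had a P4ha1 UMI (30.8% and 10.0% without thinning). The P4ha1 log2 ratio of 1.38 stayed between 1.21 and 1.54 over 21 alternative settings, and among cells that were not mitotic the levels were 55.2 and 19.6 CPM.

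Egln3 stood at 7.61 CPM in Hhex-positive cells (59 UMIs) and 11.6 in other cells (242 UMIs), 1.52-fold lower (1.14 to 2.06). The call was lost under 8 of the 21 alternative settings, TMM and median-of-ratios scaling among them, and without stress-high cells Hk2 was called lower in its place. Among all 12208 genes measured here, 10.2% were higher and 13.9% lower in Hhex-positive cells, which is close to the 1 in 10 of the members on each side. Both libraries' Hhex-negative cells differed in Egln3 as the whole libraries did. It was at 32.5 CPM in vehicle cells without Hhex and 11.6 in cisplatin cells without Hhex, 2.80-fold lower (2.44 to 3.24).

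**Figure D3:**
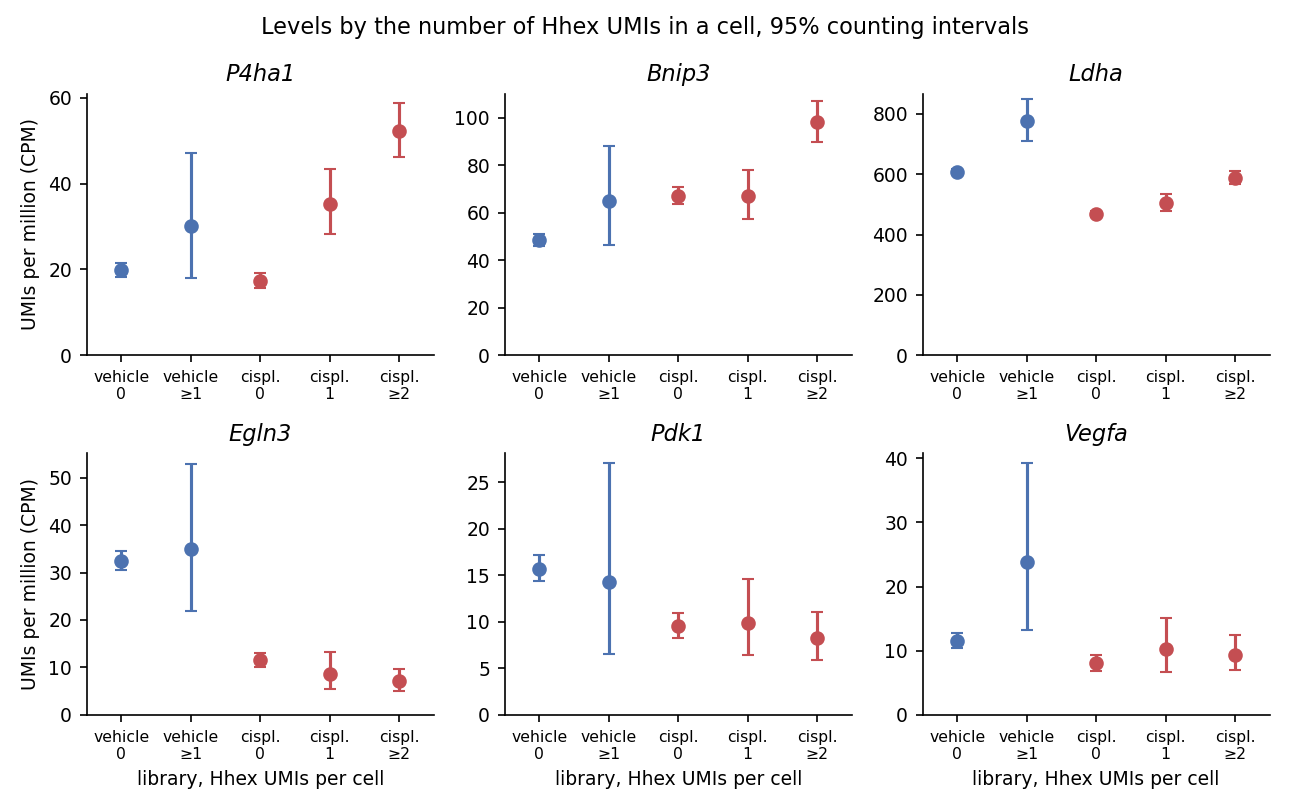
Levels (CPM, linear axes from 0) of 6 members by the number of Hhex UMIs in a cell, for the vehicle (blue, 0 against 1 or more, since 17 cells had 2 or more) and cisplatin (red, cispl.) libraries; bars are exact 95% Poisson intervals for counting error only. P4ha1 is at 17.3, 35.2 and 52.2 CPM in cisplatin cells with 0, 1 and at least 2 Hhex UMIs, and Egln3 is lower in the 3 cisplatin groups than in the 2 vehicle groups drawn; the 17 vehicle cells with 2 or more Hhex UMIs, not drawn apart, had 9.58 CPM from 2 UMIs.

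Bnip3, Ldha and Aldoa were higher in Hhex-positive cells of the cisplatin library by less than 1.5-fold, with intervals above 1. Bnip3 was at 88.2 CPM against 67.2 (1.31-fold, 1.20 to 1.44), with 67.3 in cells of exactly 1 Hhex UMI and 98.3 in cells of 2 or more. Ldha was at 562 against 469 CPM and Aldoa at 569 against 502. For Vegfa, Slc2a1, Pgk1, Pdk1 and Hk2 the intervals include 1, so no difference was detectable at this depth. Their levels in Hhex-positive and other cells were 9.67 and 8.05 CPM for Vegfa, 19.6 and 17.0 for Slc2a1, 11.5 and 8.81 for Pgk1, 8.77 and 9.58 for Pdk1, and 2.84 and 3.78 for Hk2.

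Markers of several other cell types were higher with Hhex in the same library, most of all those of club and alveolar type 2 cells. The 4 club cell genes summed to 6379 CPM in Hhex-positive cells and 462 in other cells, led by Scgb1a1, and the 6 alveolar type 2 genes to 580 and 44.7 CPM. No gene of either list was at 0 in either group, and Lamp3 of the alveolar type 2 list went the other way, at 0.258 and 0.431 CPM. The 7 fibroblast genes summed to 31.2 and 17.2 CPM, nearly all of it Dcn (28.2 and 16.5), with Col1a1, Lum and Pdgfra at 0 in the Hhex-positive cells. The endothelial sum was 13.5 and 7.71 CPM and the B cell sum 7.09 and 1.63. Lower in Hhex-positive cells were the T cell sum (7.35 and 14.9 CPM), the ciliated cell sum (44.0 and 63.1), and the neutrophil and erythroid sums. In the vehicle library the club cell sum was 841 CPM in Hhex-positive cells and 192 in others. The part of these markers in the P4ha1 difference was not tested. Barcodes with at least 3 scarce markers of another cell type, 22 in vehicle and 4 in cisplatin, had been left out, and no other step against doublets was used.

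Within the vehicle library only 51 cells were Hhex-positive, and single members rest on few molecules. Vegfa was called higher at 23.8 CPM against 11.6 (2.05-fold, 1.14 to 3.43) from 15 UMIs. P4ha1 was called higher at 30.1 against 19.8 CPM from 19 UMIs, and Pgk1 lower at 4.75 against 10.9 CPM from 3 UMIs, with intervals that include 1. Among 12457 measured genes, 12.3% were higher and 15.3% lower in these cells, so 2 members higher and 1 lower of 10 are near that background. The Vegfa direction turned under 5 of the settings, including without stress-high cells, where the log2 ratio was -0.20. Ldha was at 776 CPM against 609 (1.27-fold, 1.16 to 1.39), but its log2 ratio went from 0.35 to -0.055 without mitotic cells. Egln3 stood at 34.9 CPM in Hhex-positive vehicle cells and 32.5 in others, and the former joins 47.3 CPM in cells with exactly 1 Hhex UMI (20 UMIs of Egln3) and 9.58 CPM in the 17 cells with 2 or more (2 UMIs, interval 1.16 to 34.6). With at least 2 Hhex UMIs as the border the Egln3 log2 ratio was -1.66 instead of 0.10.

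The share of Hhex-positive cells enters the comparison of whole libraries. In cells without a Hhex UMI, P4ha1 was at 19.8 and 17.3 CPM, the opposite order from all cells. Its log2 ratio there, -0.18, lay near the median of all genes, -0.16, and ran from -0.23 to 0.049 over 21 alternative settings. Of the 10 members, 1 (Bnip3, 48.4 and 67.2 CPM) lay above 0 there and 9 below, beside 4545 and 8524 of all 13069 genes. Egln3 and Pdk1 were again the members called lower, with Pdk1 at 15.7 and 9.58 CPM, and none was called higher. The background in these cells was 20.4% lower and 5.78% higher of 13069 genes.

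The rest of the pathway also differed by Hhex in the cisplatin library. No oxygen sensor or HIF subunit of 7 passed the limit: Hif1a was at 114 CPM in Hhex-positive and 107 in other cells, Epas1 at 2.32 and 1.63, Vhl at 12.3 and 15.7, Egln1 at 13.8 and 11.6, and Egln2 at 59.6 and 54.3. Of 22 further HIF targets 3 were higher and 4 lower, beside 10.2% and 13.9% of all genes. The median log2 ratio of the targets was -0.09, beside -0.07 for all genes. The 4 lower ones were the secreted factors Stc2 (1.29 against 5.79 CPM) and Adm (7.22 against 16.4) and the mitochondrial proteins Bnip3l (238 against 420) and Higd1a (202 against 350). Bnip3l is the closest relative of Bnip3, which lay on the other side. Named after their values were seen, the 3 higher ones were Ndrg1 (19.7 against 11.8 CPM), Fam162a (67.6 against 44.5) and Ak4 (2.71 against 1.48).

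Further glycolysis genes were called only on the higher side in Hhex-positive cells, 5 of 14 with a median of 0.17. The background over 12208 measured genes was 10.2% past the limit on that side and 13.9% on the other, around a median of -0.07. Aldoc, the aldolase of brain, was at 30.1 CPM against 8.52 (3.53-fold, 2.89 to 4.31). Pfkm, the muscle phosphofructokinase, was at 18.8 against 7.57 CPM (2.49-fold, 1.97 to 3.14), and neuronal enolase Eno2 at 31.1 against 18.8 (1.66-fold, 1.40 to 1.95). Tpi1, triose-phosphate isomerase and named after its values were seen, was at 482 against 300 CPM. The fifth, Ldhb, rests on the cell with 52 of its 60 UMIs. None of the 10 measured pyruvate entry genes passed the limit, with a median of -0.11: the kinases Pdk3 and Pdk2 were at 35.7 against 47.6 and 6.19 against 7.81 CPM, Pdp1 at 22.7 against 19.4 and Dlat at 57.0 against 65.1. In the vehicle library Aldoc was likewise higher in the Hhex-positive cells, at 80.8 against 9.74 CPM from 51 and 306 UMIs. Of the 14 genes 2 were called higher there and none lower, beside 12.3% and 15.3% of all genes. Eno2, with 10 and 499 UMIs, was not called in vehicle.

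The third comparison was by cell state. A cell with at least 2 UMIs over 10 genes of mitosis counted as mitotic, 1597 cells (43.8%) in vehicle and 1885 (44.7%) in cisplatin. Of the remaining cells 911 and 961 had exactly 1 such UMI, so many lie next to the border, and mitotic cells were deeper, with medians of 9928 UMIs against 7291 and 7909 against 4995. Aldoa was lower in mitotic cells of both libraries, at 409 CPM against 616 in vehicle (1.51-fold, 1.46 to 1.55) and 356 against 725 in cisplatin (2.04-fold, 1.97 to 2.11). It was the 1 member called lower in each, beside 2.55% of all genes lower and 7.67% higher in vehicle, and 4.42% lower and 9.7% higher in cisplatin. No member was called higher. Ldha lay on the same side by less, at 560 against 673 CPM in vehicle and 444 against 557 in cisplatin.

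The difference between the libraries in Aldoa had opposite signs in the classes. Among mitotic cells Aldoa was at 409 and 356 CPM, and among the others at 616 and 725. The log2 ratio in mitotic cells, -0.20, lay near the median of all genes there, -0.16. Egln3 was lower in cisplatin in both classes, at 31.0 and 8.95 CPM in mitotic cells and 34.3 and 12.4 in the others. Pdk1 was at 14.2 and 9.96 CPM in mitotic cells (1.42-fold lower) and 17.4 and 8.61 in the others (2.02-fold lower). Bnip3 was higher in both, at 44.8 and 71.8 CPM in mitotic cells and 53.3 and 74.3 in the others.

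**Figure D4:**
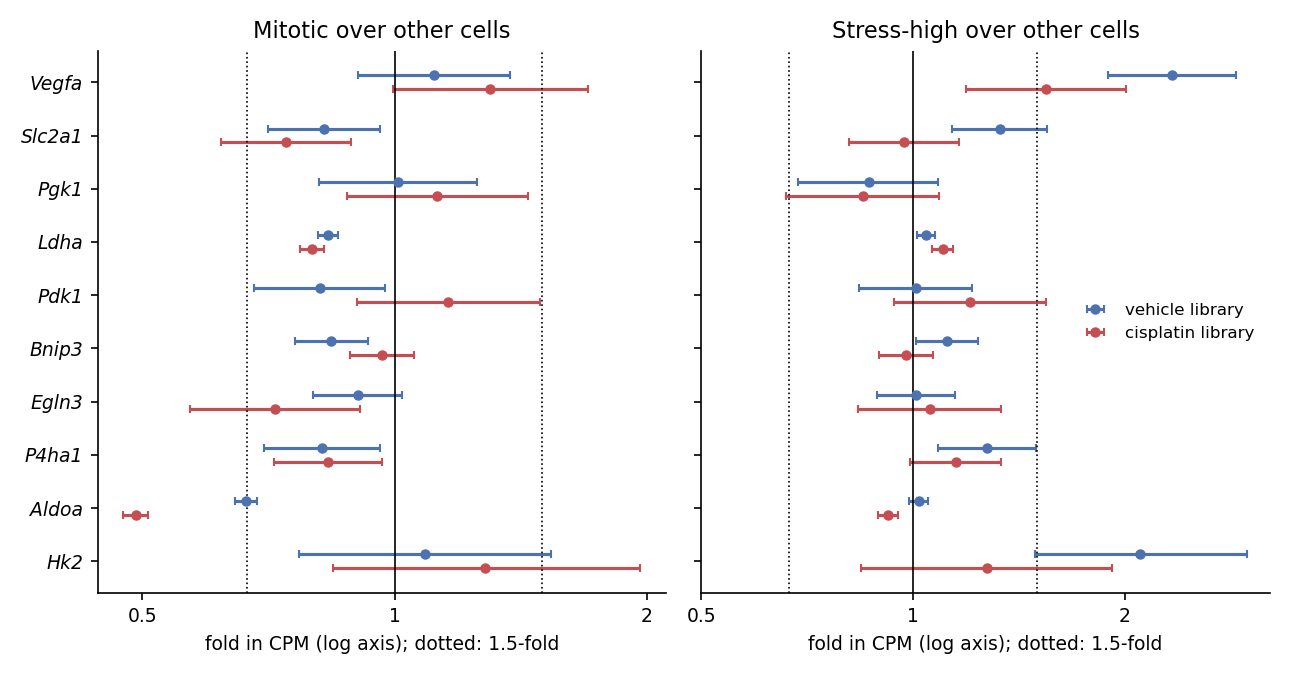
Fold in CPM (log axis) of each member in mitotic over other cells (left) and stress-high over other cells (right), in the vehicle (blue) and cisplatin (red) libraries; bars are exact 95% intervals for counting error only and dotted lines mark 1.5-fold. Aldoa lies below the line on the left in both libraries, and Vegfa lies above it on the right, at 2.33-fold in vehicle and 1.54-fold in cisplatin, the latter lost without mitotic cells.

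The integrated stress response slows translation and induces a set of genes when amino acids run short or proteins misfold. A cell with at least 3 UMIs over Trib3, Nupr1, Ddit3 and Chac1 counted as stress-high, 1110 cells (30.4%) in vehicle and 1520 (36.1%) in cisplatin, with 547 and 597 cells just under the border at 2 UMIs. Stress-high cells were deeper too, with medians of 9763 UMIs against 7610 and 7520.5 against 5377.5. Vegfa was higher in them in both libraries, at 18.3 CPM against 7.87 in vehicle (2.33-fold, 1.89 to 2.88) and 10.6 against 6.86 in cisplatin (1.54-fold, 1.19 to 2.01). The cisplatin call was lost without mitotic cells, where the Vegfa log2 ratio went from 0.56 to 0.15. Hk2 was higher in vehicle, at 6.53 against 3.11 CPM (2.10-fold, 1.49 to 2.98), while its cisplatin levels were 4.01 and 3.15 CPM with an interval that includes 1. No other member was called and none was lower.

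Those counts, 2 of 10 higher in vehicle and 1 of 10 in cisplatin, stand beside 5.08% and 3.25% of all genes higher and 2.13% and 1.22% lower. Slc2a1 and P4ha1 were higher in stress-high vehicle cells by less than the limit, at 24.9 against 18.7 CPM and 23.1 against 18.1 CPM. Egln3 and Pdk1 had intervals that include 1 in vehicle, at 32.7 against 32.4 and 15.8 against 15.6 CPM. The lower Vegfa level of the cisplatin library was larger in stress-high cells, at 18.3 and 10.6 CPM (1.73-fold lower, 1.39 to 2.16), than in the others, at 7.87 and 6.86 CPM, where the interval includes 1. That contrast between the classes was not tested.

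Correlations of the members with each other from cell to cell were low. Over the 45 pairs, the median Pearson correlation of log counts in cells thinned to 3000 UMIs was 0.035 in 3506 vehicle cells and 0.003 in 3853 cisplatin cells. The highest pair in each library was Ldha with Aldoa, at 0.21 and 0.15. Of the 45 pairs, 41 lay above 0 in vehicle and 26 in cisplatin. Over all pairs of genes with a mean of at least 0.2 thinned UMIs the median was 0.0001 in each library. Of the members, Ldha and Aldoa reached that mean in vehicle, and Ldha, Bnip3 and Aldoa in cisplatin. At counts this sparse the member correlations are a description and no finding, and their source was not tested. By the same measure the genes most like the sum of the 10 members, among 2287 compared, were Krt7 (mean of the libraries 0.23), Resp18 (0.22), Chga (0.20), Scg5 (0.19) and Krt18 (0.19). The sum is made mostly of Ldha and Aldoa.

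A few cells of each library had several of the scarcer transcripts at once. How many would do so if the genes were detected independently of each other was not tested. The 8 members other than Ldha and Aldoa were counted in thinned cells, and cells with at least 3 of them were set aside, a border chosen after the values were seen. There were 39 such cells of 3506 in vehicle (1.11%, 0.792 to 1.52) and 26 of 3853 in cisplatin (0.675%, 0.441 to 0.987), with 215 and 231 cells just under the border at 2 genes. In vehicle 8 cells had 4 or more, and the highest cell had 20 UMIs of the 8 genes. All 26 cisplatin cells had exactly 3 (the upper limit for any higher number is 0.0957% of cells), and the highest had 5 UMIs. Median depth before thinning was 7779 UMIs in these vehicle cells and 8368 in the rest, and 7948 and 6309 in cisplatin.

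Genes that the border did not use were then read in the same cells. In vehicle the 14 further glycolysis genes summed to 5763 CPM against 3447 in the rest (1.67-fold, 1.60 to 1.75), with 11 of 14 at any level above the rest, beside 45.9% of all 12441 measured genes. The further HIF targets summed to 2180 against 1441 CPM (1.51-fold, 1.41 to 1.62), with 18 of 22 above. These counts take no account of counting error, and some of the genes have intervals that include 1. Slc16a3 was at 167 CPM against 37.9 (4.41-fold, 3.34 to 5.73) from counts before thinning, and after thinning 11 of 39 cells had a UMI of it. Pfkl was at 147 CPM against 56.8. The pyruvate entry genes summed to 802 against 924 CPM and Hif1a stood at 73.7 against 98.4, with an interval that includes 1 for Hif1a. In the cisplatin cells the glycolysis sum was 3233 against 2717 CPM (1.19-fold, 1.11 to 1.27), with 12 of 14 above, beside 47.6% of all 12159 measured genes. The target sum was 1581 against 1413 CPM (1.12-fold, 1.01 to 1.23), with 15 of 22 above, and Slc16a3 was at 19.8 against 14.0 CPM from 5 UMIs. The pyruvate entry sum, 1090 against 1014 CPM, and Hif1a, 151 against 108, had the opposite order from vehicle. Both of those cisplatin intervals include 1.

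**Figure D5:**
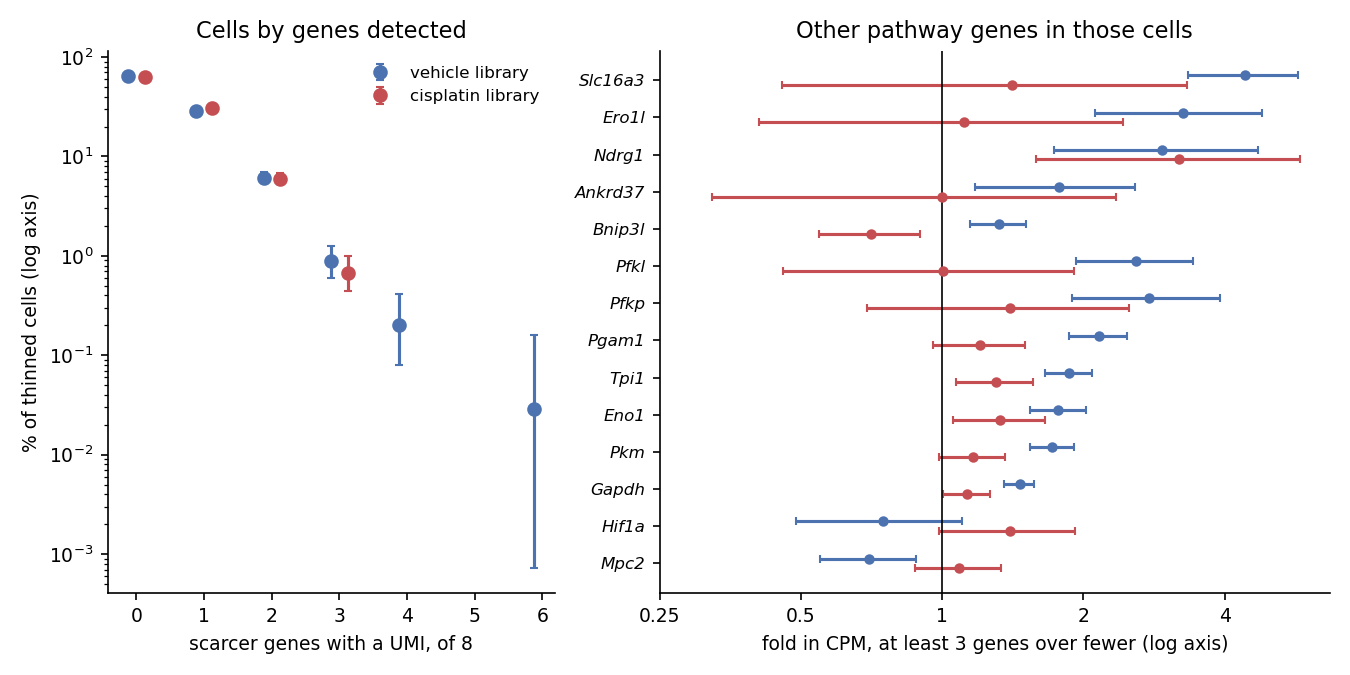
Left, share of thinned cells (%, log axis) by how many of the 8 scarcer members had a UMI, in vehicle (blue) and cisplatin (red), with exact 95% binomial intervals; right, fold in CPM (log axis) of other pathway genes in cells with at least 3 over cells with fewer, with exact 95% intervals for counting error. The genes on the right were picked for display after their values were seen. Vehicle cells alone reach 4 or more genes, and Slc16a3 is 4.41-fold higher in the vehicle cells.

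Both groups of cells overlapped with other classes. In vehicle 23 of the 39 cells (59.0%) were stress-high against 31.0% of the rest, and 2 were Hhex-positive. In cisplatin 11 of the 26 (42.3%) were stress-high against 37.9%, and 16 (61.5%) were Hhex-positive against 22.3%, with P4ha1 among the genes counted. Fibroblast markers summed to 221 CPM in the 39 vehicle cells and 41.9 in the rest, and to 15.8 and 21.1 CPM in cisplatin. Over the whole vehicle library nearly all of the fibroblast sum was Dcn, at 43.0 of 43.5 CPM. The sum in the 39 cells is not split by gene here. The part of fibroblast markers in the difference was not tested. Whether the libraries differ in these cells was not tested either.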

How the data were processed

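Both deposited matrices hold UMI counts, whole numbers that had not been normalized, per the file headers. The submitters' processing notes list Cell Ranger 2.0.2 and the build mm10. Whether counting used strand is not given in the sources used here. Kept barcodes had at least 500 detected genes and at most 10% mitochondrial UMIs, 3672 of 3726 in vehicle and 4218 of 4254 in cisplatin. Barcodes that carried 3 or more markers of a foreign cell type were left out, counting only markers seen in under 2% of barcodes. Counts were summed over cells, scaled to CPM and compared at 1.5-fold with at least 50 UMIs over both groups. With 1 library per group no test was possible. Fold intervals are conditional binomial, level intervals Poisson and shares Clopper-Pearson, all at 95% and covering counting error only. Shares and correlations used counts thinned to 3000 UMIs per cell. The computing steps were tested on simulated data.

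The members and lists were chosen with earlier results of these data known. Genes named beyond the 10 members and Hhex, Hif1a, Epas1 and Vhl are up to 4 of each list with the largest ratio in the cisplatin against vehicle and the Hhex comparison, and the 5 genes most correlated with the members' sum; others are marked in the text. Alternatives varied the filters, scaling (edgeR 4.0.16 for TMM, DESeq2 1.42.0 for median-of-ratios), fold limit, floor, classes and thinning. Python 3.11.15, numpy 2.4.6, scipy 1.17.1 and pandas 2.3.3 were used. Positions come from GENCODE M21 (GRCm38), in which 28339 of 28692 gene identifiers were found. Near copies (Pgk1-rs7, Pgk2, Aldoart1, Aldoart2, Ldhal6b) had at most 9 UMIs in a library. One item of the genotype is not reported here.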

Additional observations from a re-analysis of the deposited data

Results flagged for a closer look

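Aldoa differed between the libraries in opposite directions in mitotic and other cells. The log2 ratio of cisplatin over vehicle was -0.20 in mitotic cells (0.869-fold, 0.839 to 0.900) and 0.23 in cells that were not mitotic (1.18-fold, 1.14 to 1.21). It stood out because both intervals exclude 1 on opposite sides. The median log2 ratio of all genes was -0.16 in mitotic cells and -0.19 in the others. Aldoa in mitotic cells thus lay near the median of all genes, and only the value in the other cells lay clearly apart from it. The difference between the classes was not tested, since each class has 1 library per group, and 6 pairs of contrasts for 10 members, 60 in all, were looked at for such a reversal.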

How the results depend on the processing

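Of 400 alternative values of the counts of genes past the limit, 320 stayed within 1.5 times the count reported, 80 moved further and none reversed. Of 2276 values of single genes or shares, 2034 stayed within the counting interval, 230 moved further, and 12 turned the direction of a gene past the limit. Another 52 log2 ratios of genes not past the limit lay on the other side of 0, among them Ldha with Hhex in vehicle at -0.055 without mitotic cells and Egln3 there at -1.66 with at least 2 Hhex UMIs and -1.67 with at least 3 partner genes. The cause of these changes was not tested.

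In cisplatin against vehicle, members higher went from 0 to 2 at a looser fold limit and in Hhex-positive cells alone, and to 1 under TMM, median-of-ratios scaling, relative to the median of all genes, with at least 1500 detected genes, in mitotic cells alone and without stress-high cells. Members lower went from 2 to 1 at a 2-fold limit, under median-of-ratios scaling, relative to the median, with a trend on transcript length removed and in mitotic cells alone. In cells without Hhex, members higher went from 0 to 1 at the looser limit, under TMM and median-of-ratios scaling and relative to the median, and members lower from 2 to 4 at the looser limit and to 1 at 2-fold, under those scalings, relative to the median and with the length trend removed. Pathway genes higher (2) became 8 at the looser limit, 7 in Hhex-positive cells alone, 6 under median-of-ratios scaling, 4 under TMM, relative to the median and without the length trend, and 1 at 2-fold, at a floor of 200 UMIs, as a mean over cells, with barcodes of other types kept, and without stress-high or without mitotic cells. Pathway genes lower (7) became 21 at the looser limit, 18 in Hhex-positive cells alone, 4 without the length trend and 3 at 2-fold.

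In Hhex-positive against other cisplatin cells, members higher (1) became 3 at the looser limit and 2 without mitotic cells. Members lower (1) became 2 at the looser limit and with at least 2 Hhex UMIs, and 0 at 2-fold, with Hhex read after thinning, under TMM and median-of-ratios scaling, relative to the median, at 5% mitochondrial UMIs and without the length trend. Pathway genes higher (8) became 3 at 2-fold, and those lower (4) became 12 at the looser limit, 2 at 2-fold, and 7 with at least 2 Hhex UMIs or at least 3 partner genes. In vehicle, members higher (2) became 6 at the looser limit and 1 at 2-fold, under TMM, with at least 2 Hhex UMIs, with partner genes, with a total without mitochondrial and ribosomal genes and without mitotic cells, and members lower (1) became 2 with at least 2 Hhex UMIs, with partner genes, without stress-high and without mitotic cells.

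For stress-high cells, members higher (Vegfa in cisplatin) became 2 at the looser limit and 0 at 2-fold or without mitotic cells in cisplatin (from 1), and 4 at the looser limit or without mitotic cells and 1 at a floor of 200 in vehicle (from 2). For mitotic cells in cisplatin, members higher (0) became 2 at the looser limit, and those lower (1) became 4 at the looser limit and 2 with classes from thinned counts or as a mean over cells. In vehicle, members lower (1) became 0 at 2-fold, with barcodes of other types kept, without the length trend and without stress-high cells.

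The log2 ratio of Ldhb with Hhex in cisplatin became -1.34 with Hhex after thinning, -1.11 with at least 2 Hhex UMIs, -0.16 as a mean over cells, -0.57 without stress-high and -0.031 without mitotic cells. In vehicle, P4ha1 became -0.10 without stress-high cells, Pgk1 0.10 with Hhex after thinning, and Vegfa -1.41 after thinning, -0.25 with at least 2 Hhex UMIs, -0.28 with partner genes, -0.20 without stress-high and -0.56 without mitotic cells. The share of cells with at least 3 scarcer members was 0.521% in vehicle and 0.310% in cisplatin at 2000 UMIs, and 3.27% and 2.17% at 5000 UMIs.

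No paired analysis was possible because there is 1 library per group.

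Depth limits Hk2 most, with 141 UMIs in vehicle and 101 in cisplatin, and the 51 Hhex-positive vehicle cells, which held 1.97% of that library's UMIs.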

Other observations

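Stc2, stanniocalcin 2, a secreted glycoprotein on the list of further HIF targets, had a wider difference by the stress-high class than any of the 10 members. In vehicle it was at 10.7 CPM in stress-high cells and 0.551 in other cells, 19.5-fold higher (10.5 to 40.0), from 130 and 11 UMIs. In cisplatin it was at 9.79 and 0.556 CPM, 17.6-fold higher (8.97 to 39.4), from 122 and 9 UMIs. Its whole-library levels were 4.40 CPM in vehicle and 4.57 in cisplatin. The comparison was picked after its values were seen.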
